A study of Mus musculus with 72 samples.

Results

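Gene expression in liver was set against kidney, heart and brain in 12 arrays from mice that had eaten the control diet for 6 months: 3 liver arrays, and 9 arrays made up of 3 each from kidney, heart and brain. They are 12 of the 72 arrays of the series, which holds 24 groups of 3. The tissue, diet, duration and replicate number were read from the sample labels. All mice were female Senescence accelerated mice prone 1 (SAMP1), a strain bred for early ageing, entered at 4 weeks of age and killed at about 7 months, so the organ profiles are those of females of that strain and of no other. The other diets carried the oxidised (Q10) or the reduced form (QH2) of coenzyme Q10 at 500 mg per kg body weight per day, and a second set of mice stayed on diet for 14 months. Per the study's design text 3 mice were killed for each group, so each array of a group is taken as its own animal, and no label says whether liver, kidney, heart and brain arrays of the same number came from the same mouse. RNA of whole tissue was hybridised to 1-colour Affymetrix arrays, on which each probe set reports 1 signal for a transcript.

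The liver makes most of the proteins of blood plasma, turns ammonia into urea, clears drugs, synthesises bile acids and releases glucose and ketone bodies for the rest of the body. These tasks fall to the hepatocyte, which makes up most of the organ's mass, while Kupffer cells, sinusoidal endothelium, stellate cells and bile duct cells make up the remainder. The kidney tubule shares several of these pathways, among them gluconeogenesis and amino acid breakdown. In RNA of whole tissue, fewer cells of a type and less RNA per cell cannot be told apart.

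The deposited signals were not on a common level: the mean signal per array was 85.17 to 169.4 for livers, 136.1 to 182.6 for kidneys, 107.8 to 124.9 for hearts and 166.1 to 200.6 for brains. The 12 arrays were therefore quantile normalised together, 16 was added to each signal, and log2 was taken, so a fold change stands on the log2(signal + 16) scale and understates the change of dim genes. Of 45037 probe sets 27022 were tested with limma, and 13384 genes were each represented by their brightest probe set. Within an organ the arrays correlated at 0.9576 or more over the tested probe sets, and liver correlated with kidney at 0.7398 to 0.7548, with heart at 0.6231 to 0.6349 and with brain at 0.4107 to 0.4263. The ratio of the 3' to the 5' actin control probe set, a measure of RNA integrity, was 2.86 to 3 for livers, 2.32 to 2.49 for kidneys, 1.9 to 2.12 for hearts and 1.8 to 1.86 for brains, and cannot be told apart from the organ. Under other scalings the median log2 difference of all tested probe sets lay between -0.58 and 0.11 over kidney, between -0.16 and 0.03 over heart and between -1.17 and 0.15 over brain, against -0.03, -0.04 and 0.05 after quantile normalisation. Directions of gene groups below are relative to that median.

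Each organ's markers were high in the arrays so labelled. The kidney tubule markers summed to 50.42 to 72.09 in the liver arrays, against 34350 to 35930 in the kidney arrays. Heart muscle markers summed to 34.2 to 86.97 in liver, against 65890 to 68060 in heart, and brain markers to 230.2 to 288.6 in liver, against 29670 to 32160 in brain. The liver sum of the brain markers was mostly Syt1, a synaptic vesicle protein, at 237, 202 and 171 in the liver arrays, while the brain arrays read 6108, 6837 and 7294. Hepatocyte markers summed to 58620 to 63510 in livers, against 5958 to 8132 in kidneys, 82.93 to 104.5 in hearts and 7486 to 10950 in brains. The kidney and brain sums came mostly from Ttr, described below.

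A gene was called higher, or lower, in liver when limma's adjusted p was under 0.05 and the change was at least 2-fold against kidney, against heart and against brain. By that rule 828 genes were higher (6.19% of those tested) and 453 were lower (3.38%). At the level of probe sets these were 1350 (5%) higher and 715 (2.65%) lower. The call of a gene rests on its brightest probe set alone. Among 276 higher genes with several tested probe sets, 179 had all of them called higher. Among 280 such lower genes, 62 had all of them called lower. In all 828 higher genes the 3 liver arrays lay above all 9 others, and in 450 of the 453 lower genes they lay below all 9, where 12.4% of all tested probe sets lay above and 10% below. The genes were chosen on these same arrays, so this separation largely follows from the rule and tests nothing about them. With the offset of 16 the 2 sides differed in size: the median smallest log2 difference was 2.09 among the higher genes and -1.35 among the lower ones. Against every other organ 429 genes were at least 4-fold higher, 190 at least 16-fold and 91 at least 64-fold, while 79 genes were at least 4-fold lower, 4 at least 16-fold and 0 at least 64-fold. The offset limits the folds of dim genes on both sides, so these sizes depend on it. With an offset of 1, 1478 probe sets were higher and 1555 lower, and with 64, 944 and 194. Over 23 alternative settings the smallest log2 difference reached -6.465 for the lower gene Htra1 and 11.78 for the higher gene Fgb. The smallest of the 3 log2 differences was 1.006 in the higher gene closest to the 2-fold limit, and 0.99953 in the closest gene that was called against all 3 organs but fell short of it. Another 858 genes were called higher and 1057 lower against all 3 organs with under 2-fold in at least 1 comparison.

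The kidney was most often the organ nearest to liver. Among the 828 higher genes the highest mean outside liver was in kidney for 478 (57.7%), in heart for 263 (31.8%) and in brain for 87 (10.5%). Among the 453 lower genes the lowest mean outside liver was in kidney for 217 (47.9%), in heart for 137 (30.2%) and in brain for 99 (21.9%). At least 2-fold higher in liver than in both heart and brain were 1529 genes. Of these, 828 were also at least 2-fold higher than in kidney, 285 were higher by less, 263 were not called against kidney and 153 were lower in liver than in kidney. The same count without heart began from 1035 genes, of which 44 were lower in liver than in heart, and without brain from 942 genes, of which 40 were lower in liver than in brain.

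The 20 genes furthest above every other organ were led by Fgb, Ces1c and Apoa1, and each is described below with what it is known to do. Their liver signals ran from 3695 to 12731, while no array of another organ exceeded 86.8 for any of them. The smallest of the 3 fold changes ran from 234 to 474 over these genes, and the largest adjusted p of their 60 tests was 3.18e-11. Every tested probe set of each of the 20 genes was called higher. Since the members of this group were chosen on these values, the values describe it and test nothing about it.

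**Figure D1:**
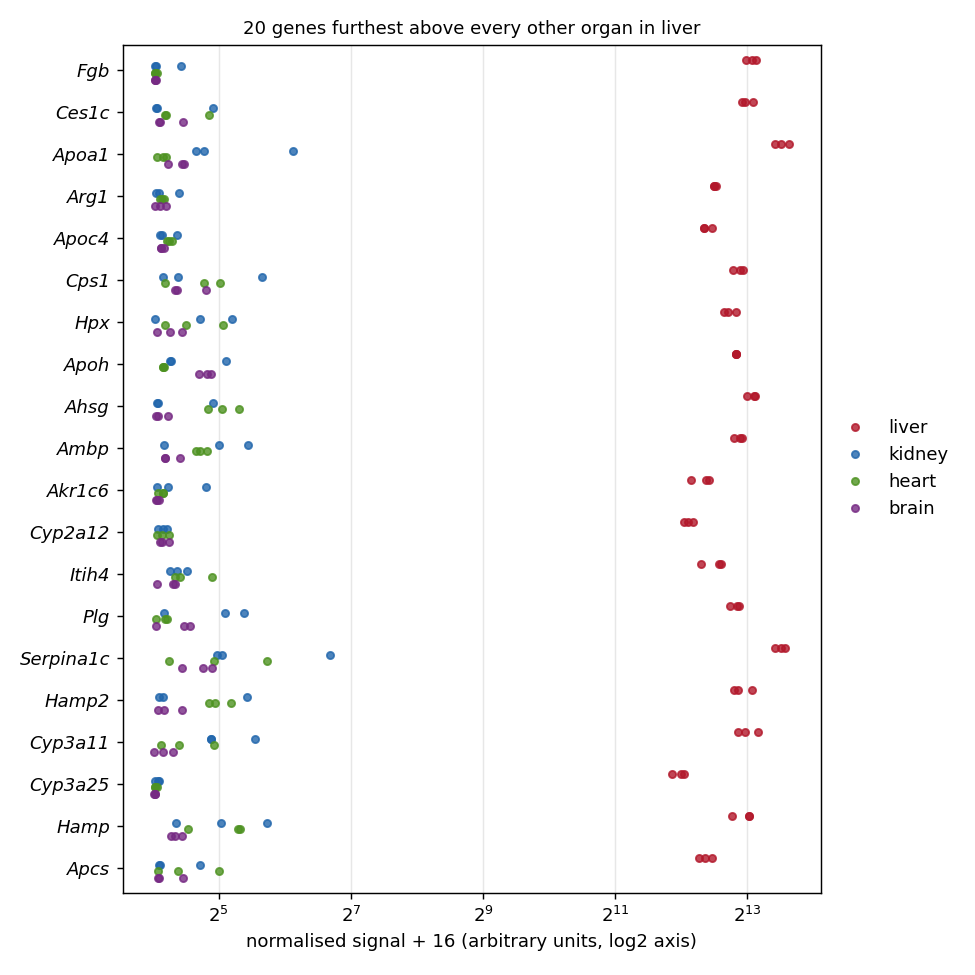
Normalised signal plus 16 on a log2 axis, in arbitrary units, for the 20 genes furthest above kidney, heart and brain in liver; each point is 1 array, 3 per organ. The 3 liver arrays lie between 3695 and 12731 before the offset, to the right of every array of the other organs.

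Fibrinogen beta (Fgb), a chain of the clotting protein fibrinogen, had signals of 8086, 8549 and 8998 in livers, against 5.62, 0.6 and 0.358 in kidneys, 0.45, 0.358 and 0.7 in hearts and 0.542, 0.433 and 0.408 in brains. Its log2 differences were 8.89 ± 0.14 over kidney, 9.02 ± 0.14 over heart and 9.02 ± 0.14 over brain (SE, n = 3 arrays per organ). It was the gene furthest above all 3 organs. Ces1c, a carboxylesterase that circulates in mouse plasma, had signals of 7733, 7943 and 8689 in livers, against 14.3, 0.6 and 0.717 in kidneys, 13, 2.14 and 2.38 in hearts and 6.11, 1.34 and 1.07 in brains. Its log2 differences were 8.64 ± 0.23 over kidney, 8.58 ± 0.23 over heart and 8.76 ± 0.23 over brain. Kidney replicate 1 and heart replicate 1 were the highest of their organs for this gene.

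Apoa1, the main protein of high-density lipoprotein, gave 10907, 12731 and 11625 in livers, against 54, 11.3 and 9.13 in kidneys, 1.84, 0.8 and 2.38 in hearts and 6.35, 2.8 and 5.79 in brains. Its log2 differences were 8.34 over kidney, 9.38 over heart and 9.13 over brain, and its highest signal outside liver was in kidney replicate 1. Apoc4, an apolipoprotein of triglyceride-rich particles, read 5198, 5632 and 5213 in livers, against 4.72, 1.68 and 1.34 in kidneys, 2.97, 3.67 and 2.56 in hearts and 2.02, 1.46 and 1.4 in brains, with log2 differences of 8.18 over kidney, 8.14 over heart and 8.25 over brain. Apoh, a phospholipid-binding plasma protein, read 7294, 7262 and 7294 in livers, against 18.5, 3.18 and 3.39 in kidneys, 1.84, 1.91 and 2.01 in hearts and 10.1, 12.3 and 13.5 in brains. For Apoh the brain came closest to liver, with a log2 difference of 8.03, and the other organs were further away.

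Arg1, the arginase that ends the urea cycle, had signals of 5896, 5782 and 5782 in livers, against 5.17, 1.15 and 0.608 in kidneys, 2.05, 1.29 and 1.62 in hearts and 1.27, 0.358 and 2.42 in brains. Cps1, the mitochondrial enzyme that starts the cycle, had signals of 7535, 7822 and 7032 in livers, against 34.4, 4.88 and 1.9 in kidneys, 16.6, 11.4 and 2.19 in hearts and 4.22, 4.64 and 11.9 in brains. The smallest of the 3 log2 differences was 8.32 over kidney for Arg1 and 8.13 over kidney for Cps1. The highest signal of either gene outside liver was the 34.4 of Cps1 in kidney replicate 1.

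The other plasma proteins among the 20 are given by the smallest of their 3 log2 differences and the organ in which it stood. For Hpx, which binds free heme, it was 8.08 over kidney, and for Ahsg, the calcium-binding fetuin-A, 8.01 over heart. For Ambp, the precursor of a protease inhibitor and a small carrier protein, it was 8.0 over kidney, and for Itih4, an acute-phase inhibitor chain, 7.94 over heart. For Apcs, the serum amyloid P component, it was 7.87 over heart, for Plg, the precursor of the fibrin-cutting enzyme plasmin, 7.94 over kidney, and for Serpina1c, a protease inhibitor of the alpha-1-antitrypsin family, 7.93 over kidney. The liver arrays read at least 4946 in each of these 7 genes. Serpina1c has near-identical relatives in mouse, which its probe set may also read.

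Akr1c6, a hydroxysteroid dehydrogenase, had a smallest log2 difference of 7.95 over kidney. Among the drug-metabolising cytochromes it was 7.95 over brain for Cyp2a12, 7.89 over kidney for Cyp3a11 and 7.89 over kidney for Cyp3a25. No array of another organ read above 1.03 for Cyp3a25, and none above 3.01 for Cyp2a12.

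Hamp, the gene of hepcidin that blocks iron release from cells, had signals of 6942, 8291 and 8291 in livers, against 36.9, 16.7 and 4.43 in kidneys, 24.2, 7.19 and 23 in hearts and 4.16, 5.85 and 3.3 in brains. Its close relative Hamp2 had 8605, 7109 and 7434 in livers, against 27.2, 1.03 and 1.9 in kidneys, 12.9, 14.9 and 20.3 in hearts and 5.88, 2.08 and 0.858 in brains. The smallest log2 difference was 7.88 over heart for Hamp and 7.92 over heart for Hamp2, and probe sets of such similar genes may read both.

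For most of these genes kidney replicate 1 read higher than the other kidney arrays. Over the 91 genes that were at least 64-fold higher in liver, its median signal was 13.3, or 0.306% of the liver mean, and it was the highest kidney array for 63 of them. The other kidney arrays had medians of 7.58 (0.177%) and 5.38 (0.148%). Medians were 4.32 to 5.48 in the heart arrays and 2.46 to 3.28 in the brain arrays. The 40th percentile of all signals was 10.88, so in each of these arrays but kidney replicate 1 the median gene of the 91 lay below it. Without kidney replicate 1 all 20 genes kept their call, and the part of that array in the other results was not tested beyond leaving it out.

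The start regions of the higher genes differed in base composition from those of all tested genes. For 514 of the 828 higher genes 1 promoter window of 300 bases was at hand from RefSeq, on build GRCm38.p6, from 250 bases before to 50 after the annotated start. Their median ratio of observed over expected CG pairs was 0.404, against 0.754 in 269 lower genes and 0.755 in all 8523 tested genes with 1 window. GC content had a median of 54.8% in higher genes, 63.7% in lower genes and 61% in all tested genes. Over all 32851 windows at hand, tested or not, the median CG ratio was 0.384 and the median GC content 52.7%. These lie near the values of the higher genes. In the 66 windows of genes at least 64-fold higher the CG ratio was 0.183 and GC content 47.5%.

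Short motifs were counted on both strands, each without regard to overlap with the others. GTTAAT, the core letters of a homeodomain site of liver genes, stood in 9.73% of the windows of higher genes, 2.6% of lower genes, 4.47% of all tested genes and 7.1% of all 32851 windows in the table. In genes at least 64-fold higher it stood in 19.7%. TATAAA, the TATA box letters, stood in 14.6% of higher, 7.06% of lower and 7.9% of all tested genes, and in 13.6% of all windows. GGGCGG, the letters of a GC box, stood in 44.6% of higher, 68.4% of lower and 63.5% of all tested genes, and in 35.7% of all windows. These shares are descriptions of letters within 300 bases, and the GC content of the window sets differs, as given above.

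Of 39 higher genes from the plasma carrier, apolipoprotein and coagulation lists with 1 window, 9 held GTTAAT. The 5 of them with the largest smallest fold change are shown, since they belong to the secreted proteins that set the liver furthest apart, with GTTAAT or its reverse ATTAAC in capitals. Besides Fgb they are F2, prothrombin, Fga, the fibrinogen alpha chain, Apoc2, the activator of lipoprotein lipase, and Alb, albumin. The window of Ldhb, the gene furthest below the other organs, is also shown, with its 17 CG pairs in capitals. It was picked and marked by other letters than the 5, so the windows are no comparison. The median CG ratio of lower genes was 0.754, near the 0.755 of all tested genes. All windows run 5′ to 3′ on the gene's own strand.
Fgb (chr3:83049814-83050113, minus strand): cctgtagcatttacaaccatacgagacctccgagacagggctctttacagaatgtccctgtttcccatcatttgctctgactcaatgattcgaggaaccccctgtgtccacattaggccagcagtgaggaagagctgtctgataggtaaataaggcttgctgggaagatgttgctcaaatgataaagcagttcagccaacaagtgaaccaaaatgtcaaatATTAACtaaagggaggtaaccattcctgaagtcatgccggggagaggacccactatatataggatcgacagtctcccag
F2 (chr2:91636408-91636707, minus strand): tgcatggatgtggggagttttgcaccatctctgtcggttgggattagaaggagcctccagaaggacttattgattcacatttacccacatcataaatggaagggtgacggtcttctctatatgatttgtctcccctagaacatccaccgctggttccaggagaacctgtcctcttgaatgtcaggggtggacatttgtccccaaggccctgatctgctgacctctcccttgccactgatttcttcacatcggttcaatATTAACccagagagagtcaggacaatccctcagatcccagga
Fga (chr3:83025903-83026202, plus strand): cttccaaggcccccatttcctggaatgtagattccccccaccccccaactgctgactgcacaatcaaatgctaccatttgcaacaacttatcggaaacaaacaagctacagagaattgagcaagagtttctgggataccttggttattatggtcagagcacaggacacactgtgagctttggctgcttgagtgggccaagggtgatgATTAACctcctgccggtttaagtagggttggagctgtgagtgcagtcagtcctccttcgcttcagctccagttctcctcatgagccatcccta
Apoc2 (chr7:19677892-19678191, minus strand): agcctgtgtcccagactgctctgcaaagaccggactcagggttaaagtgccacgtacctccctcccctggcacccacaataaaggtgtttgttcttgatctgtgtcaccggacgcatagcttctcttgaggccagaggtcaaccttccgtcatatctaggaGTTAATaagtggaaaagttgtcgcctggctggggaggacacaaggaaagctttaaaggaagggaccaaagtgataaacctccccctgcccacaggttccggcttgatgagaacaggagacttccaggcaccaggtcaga
Alb (chr5:90460620-90460919, plus strand): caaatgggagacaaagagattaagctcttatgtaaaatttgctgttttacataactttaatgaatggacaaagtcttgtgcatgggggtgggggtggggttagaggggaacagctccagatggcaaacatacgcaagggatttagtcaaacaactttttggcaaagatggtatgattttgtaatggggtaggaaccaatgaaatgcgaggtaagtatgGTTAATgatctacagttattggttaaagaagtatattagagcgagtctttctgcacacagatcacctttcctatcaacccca
Ldhb (chr6:142507908-142508207, minus strand): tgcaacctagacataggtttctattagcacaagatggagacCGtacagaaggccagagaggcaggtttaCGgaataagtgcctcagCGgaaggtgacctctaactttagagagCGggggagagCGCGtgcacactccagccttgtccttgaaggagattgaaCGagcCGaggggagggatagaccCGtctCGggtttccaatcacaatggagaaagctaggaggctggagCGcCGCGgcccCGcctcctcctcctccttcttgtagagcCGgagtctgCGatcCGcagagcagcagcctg

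In Fgb the match began 29 bases before the annotated start, in Fga 43, in Apoc2 89 and in Alb 32 bases before it, while in F2 it began 8 bases after the start base. The Fgb and Fga windows lie on chromosome 3 within the fibrinogen gene cluster, on opposite strands. F2 averaged 5911 ± 351 in livers, against 11.7 ± 6.24 in kidneys, 15.4 ± 9.76 in hearts and 10.7 ± 2.37 in brains, Fga averaged 9336 ± 684 in livers, against 102 ± 11.6 in kidneys, 6.88 ± 6.5 in hearts and 3.12 ± 2.3 in brains and Apoc2 averaged 1368 ± 61.9 in livers, against 3.2 ± 3.48 in kidneys, 5.5 ± 5.74 in hearts and 1.91 ± 2.19 in brains (SD, n = 3 each).

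Gene lists of known liver tasks were counted next, each with the number of tested members that were higher or lower than in all 3 other organs; the background was 6.19% higher and 3.38% lower over all genes. With an unadjusted p under 0.05 in place of the adjusted one, 42 of the 43 lists kept the same counts, and the hormone list gained 1 higher gene. Counts moved more with the scaling between arrays. Under other scalings 21 to 33 amino acid breakdown, 11 to 18 cholesterol synthesis and 16 to 22 bile acid genes were higher. The ranges were 14 to 20 for conjugating enzymes, 14 to 20 for hormones and 11 to 16 for transcription factors. Values of named members are the smallest of their 3 log2 differences with the organ in which it stood, unless all 3 are given. Of 23 plasma carrier proteins 22 were higher and 0 lower, with median log2 differences of 6.89 over kidney, 7.66 over heart and 7.72 over brain. Alb, the most abundant plasma protein, had signals of 11196, 10289 and 9139.6 in livers, against 504, 171 and 176 in kidneys, 5.08, 28.4 and 21 in hearts and 7.47, 4.97 and 2.14 in brains. The kidney arrays read well above heart and brain for Alb, and the log2 differences were 5.26 ± 0.32 over kidney, 8.29 ± 0.32 over heart and 8.94 ± 0.32 over brain. The smallest log2 difference was 7.16 over kidney for Orm1, an acute-phase glycoprotein, and 7.15 over kidney for Hp, which binds free haemoglobin.

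**Figure D2:**
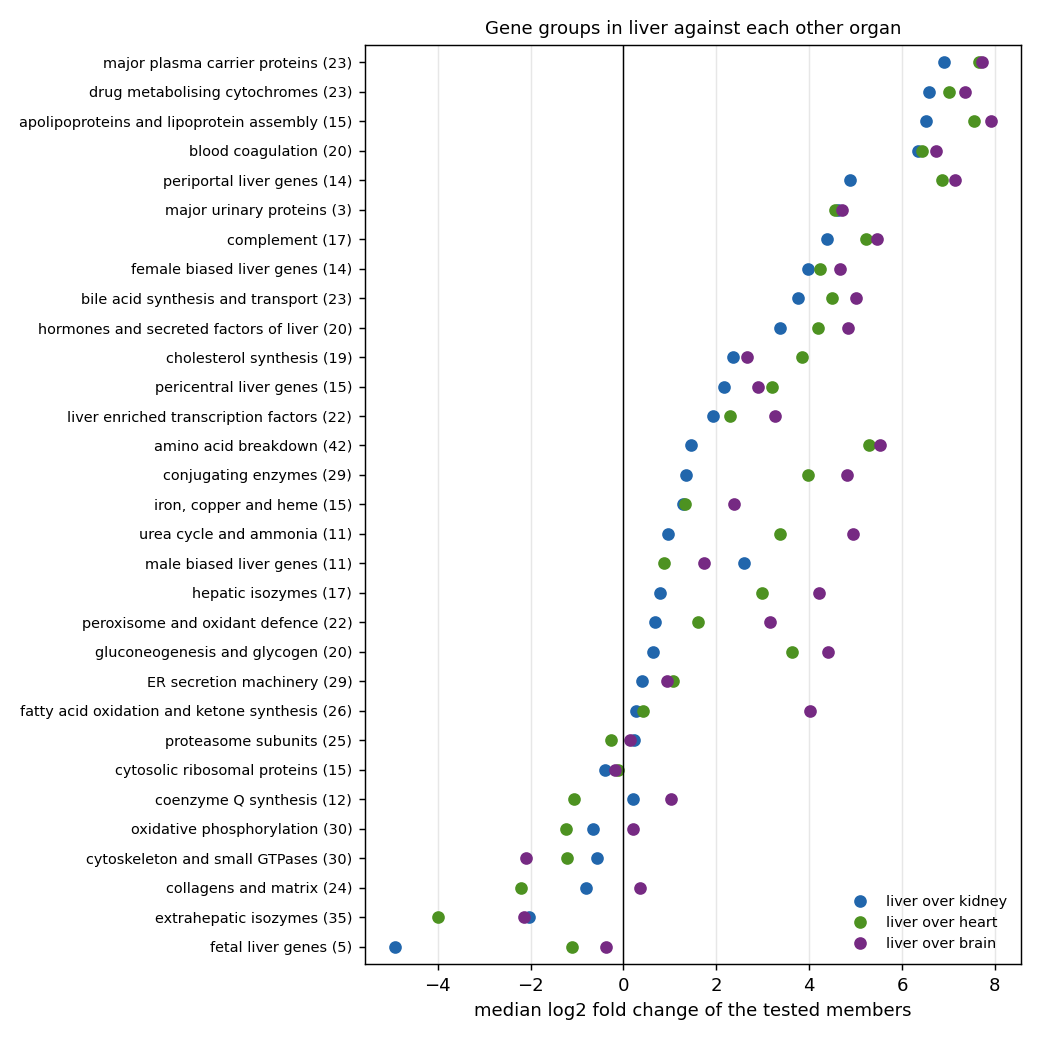
Median log2 fold change of the tested members of each gene list in liver over kidney, heart and brain; the number of tested genes is in brackets. Plasma carriers, cytochromes, apolipoproteins and coagulation lie above 6 in all 3 comparisons, while the isozymes of other tissues lie at -2.02, -4.00 and -2.14.

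Ttr, transthyretin, which carries thyroid hormone, was the 1 plasma carrier that did not pass. It had signals of 10026, 10026 and 9069.9 in livers, against 5148, 3491 and 5198 in kidneys, 29, 29.9 and 28.3 in hearts and 10907, 7434 and 8850.2 in brains. The brain arrays overlapped the liver arrays, with a log2 difference of 0.11 ± 0.14 (SE) and an adjusted p of 0.482, and whole brain holds choroid plexus, known as a site of Ttr expression. In heart the signal was low in all 3 arrays.

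Coagulation genes were higher in 18 of 20 cases and lower in 0, with medians of 6.34, 6.44 and 6.74 over kidney, heart and brain. F2 had 7.60 over heart, Fgg, the fibrinogen gamma chain, 7.65 over kidney, Serpinc1, antithrombin, 7.35 over kidney, and F10, factor X, 6.83 over kidney. The members that did not pass were F13b, a carrier subunit of factor XIII, and Pros1, the anticoagulant protein S. F13b had 0.76 over kidney, 7.14 over heart and 7.03 over brain. Pros1 had 0.99 over kidney, 0.99 over heart and 2.64 over brain, and so missed the 2-fold limit by a small margin over kidney and heart.

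Complement genes were higher in 16 of 17 cases and lower in 0, with medians of 4.39, 5.22 and 5.45. The leading members were C4bp, which restrains complement, at 6.69 over kidney, Mbl2, a lectin that starts the cascade, at 6.60 over kidney, C9, a pore-forming component, at 5.46 over heart, and Hc, mouse C5, at 5.28 over heart. Cfi, which cleaves complement fragments, had 4.86 over kidney, and Masp1, a protease of the lectin pathway, 4.72 over heart. C2 did not pass, with 601 ± 47.9 in livers, against 497 ± 10.6 in kidneys, 57.3 ± 5.86 in hearts and 13.6 ± 0.61 in brains (SD, n = 3 each). Kidney was close to liver for this component, at a log2 difference of 0.26 and an adjusted p of 0.0634.

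Apolipoproteins and lipoprotein assembly genes were higher in 13 of 15 cases and lower in 0, with medians of 6.51, 7.55 and 7.91. Apoa5, a regulator of triglyceride clearance, had 7.73 over heart, Apoa2, the second protein of high-density lipoprotein, 7.70 over kidney, and Apob, the frame of very-low-density lipoprotein, 7.31 over kidney. Apoe, which carries lipid in plasma and in brain, where astrocytes make it, did not pass. It read 9230.1, 8341 and 8850.2 in livers, against 529.9, 691 and 619 in kidneys, 1231, 997 and 983 in hearts and 6798, 5230.1 and 5796 in brains, so the liver arrays lay above the brain arrays with a log2 difference of 0.57. Apom, a carrier of sphingosine 1-phosphate, read 2891, 2393 and 2715 in liver, against 1340.3, 1479 and 1391 in kidney, and at most 5.93 in heart and brain.

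Of 23 drug-metabolising cytochromes 21 were higher and 0 lower, with medians of 6.59, 7.01 and 7.36 over kidney, heart and brain. Beside the members above, Cyp2c29 had 7.78 over kidney, Cyp2c70 7.73 over kidney and Cyp1a2, which clears caffeine, 7.52 over heart. Cyp2d26 had 0.80 over kidney, 8.13 over heart and 8.20 over brain. Cyp2j5, an arachidonic acid epoxygenase of mouse kidney and liver, had -0.51 over kidney, 7.59 over heart and 7.51 over brain. For both it was kidney alone that did not meet the rule. Of 29 conjugating enzymes 17 were higher and 0 lower, with medians of 1.34, 3.98 and 4.81. The glucuronyltransferases Ugt2b5 and Ugt2b36 had 7.48 over kidney and 7.41 over kidney, and the sulfotransferase Sult2a8 had 6.83 over brain. The glutathione transferases Gsta2 and Gstt2 and the sulfotransferase Sult1c2 were lower in liver than in kidney by limma, with log2 differences of -2.33, -1.03 and -2.38, and above heart and brain. Cytochromes and transferases of one family have similar sequences, and their probe sets may read several members.

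Bile acid genes were higher in 20 of 23 cases and lower in 0, with medians of 3.76, 4.49 and 5.01. Cyp7a1, the rate-limiting enzyme of bile acid synthesis, had signals of 2397, 2444 and 1434 in livers, against 14.6, 6.6 and 7.44 in kidneys, 7.59, 12.3 and 22.1 in hearts and 6.97, 7.88 and 5.08 in brains. The lowest liver array lay far above the highest array of the other organs, and the log2 differences were 6.34 ± 0.22 over kidney, 6.12 ± 0.22 over heart and 6.50 ± 0.22 over brain. Slc10a1, which takes bile acids up from blood, had 7.22 over kidney, Slco1b2, an organic anion carrier, 7.16 over heart, Slc27a5, which activates bile acids, 7.06 over kidney, and Abcb11, the bile salt export pump, 5.34 over heart. The 3 members that did not pass, Amacr, Scp2 and Hsd17b4, act in the peroxisomal shortening of the side chain, and had log2 differences of 0.69, 0.60 and 0.56 over kidney, under the 2-fold limit.

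Urea cycle and ammonia genes were higher in 4 of 11 cases and lower in 0, with 7 higher when scaled to a trimmed mean and 8 when scaled to the 75th percentile. Beside Arg1 and Cps1 these were Otc, the second enzyme of the cycle, at 7.59 over kidney, and Nags, which makes the activator of Cps1, at 3.37 over heart. Over kidney, Asl, which splits argininosuccinate, had 0.96 and Slc25a15, the ornithine carrier, 0.94, and neither reached 2-fold there. Glul, glutamine synthetase, had signals of 1877, 1897 and 2702 in livers, against 3497, 3069 and 3171 in kidneys, 1467, 1719 and 1795 in hearts and 5074, 4241 and 4253 in brains. Its liver level lay below kidney and brain, with adjusted p of 0.000822 and 8.99e-07, and the lowest liver array stood next to the highest heart array.

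Amino acid breakdown genes were higher in 27 of 42 cases and lower in 0, with medians of 1.46 over kidney, 5.29 over heart and 5.52 over brain. Mat1a, the liver form of methionine adenosyltransferase, had signals of 4624, 4541 and 4769 in livers, against 9.47, 6.6 and 0.483 in kidneys, 7.75, 4.63 and 6.7 in hearts and 4.52, 5.35 and 3.62 in brains, with log2 differences of 7.78 over kidney, 7.71 over heart and 7.83 over brain. Tdo2, which opens the tryptophan ring, had 7.64 over brain, Tat, tyrosine aminotransferase, 6.93 over heart, Agxt, which detoxifies glyoxylate, 6.65 over heart, and Hal, the first histidine-degrading enzyme, 5.81 over heart. Later enzymes of tyrosine breakdown did not reach 2-fold over kidney, with log2 differences of 0.77 for Fah, 0.69 for Hgd and 0.51 for Hpd, while over heart they had 4.55, 7.10 and 7.77.

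Among 20 genes of gluconeogenesis and glycogen 8 were higher, 1 was lower and 11 were neither, with medians of 0.64, 3.62 and 4.41. Gckr, the regulator of glucokinase, led with 5.28 over kidney, and Gcgr, the glucagon receptor, had 2.53 over kidney. Several enzymes of glucose release were not higher in liver than in kidney. Pck1, which makes phosphoenolpyruvate, had signals of 3159, 2654 and 3220.4 in livers, against 3618, 2593 and 2633 in kidneys, 14, 9.75 and 4.11 in hearts and 4.12, 0.358 and 0.467 in brains, with a log2 difference over kidney of 0.04 ± 0.16 (SE) and an adjusted p of 0.858. G6pc, which frees glucose from its phosphate, had 2286, 875 and 1345 in livers, against 3474, 2159.8 and 2589.7 in kidneys, 3.33, 7.59 and 0.567 in hearts and 1.32, 3.73 and 0.575 in brains, and was lower in liver than in kidney with a log2 difference of -0.94 and an adjusted p of 0.00674. The highest liver array for G6pc lay above the lowest kidney array. Over kidney, Fbp1, fructose-1,6-bisphosphatase, had -0.33 and Khk, ketohexokinase, -0.55. The lower gene was Pck2, the mitochondrial partner of Pck1, at a mean of 6.04 ± 2.22 in livers, against 83.2 ± 14.7 in kidneys, 32.1 ± 11.2 in hearts and 68.8 ± 23.9 in brains (SD, n = 3 each), whose call ended in 5 of 23 alternative settings.

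Fatty acid oxidation and ketone synthesis genes were higher in 3 of 26 cases and lower in 0, with 2 higher as deposited, 5 with a trimmed mean and 7 with the 75th percentile. Their medians were 0.26 over kidney, 0.43 over heart and 4.01 over brain, and the sign over kidney turned under another scaling, with a range of -0.16 to 0.92. Fabp1, the liver fatty acid-binding protein, was the leading member, at 10289, 8145 and 10907 in livers, against 154, 95.8 and 103 in kidneys, 11.5, 0.967 and 0.45 in hearts and 3.32, 2.27 and 2.23 in brains. The other higher members were Acsm3, a medium-chain acyl-CoA synthetase, at 2.19 over kidney, and Acot12, an acetyl-CoA hydrolase, at 1.35 over kidney. Hadhb, the thiolase of the mitochondrial trifunctional protein, read 1669 ± 273 in livers, against 2065 ± 75.2 in kidneys, 7351 ± 109 in hearts and 478 ± 42 in brains (SD, n = 3 each), so heart exceeded liver with a log2 difference of -2.14. Cpt1a, the entry step of fatty acids into mitochondria, had -0.02 over kidney, 2.81 over heart and 3.83 over brain.

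Cholesterol synthesis genes were higher in 15 of 19 cases and lower in 0, with medians of 2.35, 3.85 and 2.67. Sc5d, a late desaturase of the pathway, had signals of 1598, 2164 and 1736 in livers, against 51.7, 44.9 and 52.4 in kidneys, 50.5, 70.9 and 53.5 in hearts and 44.6, 54.7 and 38.8 in brains. Tm7sf2, a sterol reductase, had 3.48 over kidney, Idi1, an isomerase of isoprenoid units, 3.05 over brain, Dhcr7, the last reductase, 2.92 over brain, and Fdps, farnesyl diphosphate synthase, 2.85 over brain. Hmgcs1, which makes the building block hydroxymethylglutaryl-CoA, had 0.89 over kidney, under 2-fold.

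Hormones and secreted factors were higher in 16 of 20 cases and lower in 0, with medians of 3.37, 4.19 and 4.83. Igf1, the growth hormone-driven growth factor, read 3599, 3276 and 3242 in livers, against 28.4, 49.1 and 29.4 in kidneys, 48.2, 71.1 and 59.8 in hearts and 14.9, 14.5 and 17.9 in brains, with log2 differences of 6.06 over kidney, 5.49 over heart and 6.74 over brain. Fgl1, a fibrinogen-like hepatokine, had 7.28 over kidney, Lect2, another hepatokine, 6.36 over kidney, and Leap2, a blocker of the ghrelin receptor, 5.75 over heart. Selenop, the selenium carrier, had 8685 ± 412 in livers, against 8578 ± 443 in kidneys, 4262 ± 127 in hearts and 2222 ± 300.2 in brains (SD, n = 3 each), and its liver and kidney means differed by 0.02 on the log2 scale with an adjusted p of 0.888.

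Of 22 transcription factors known for high levels in liver 12 were higher and 0 lower, with medians of 1.92, 2.29 and 3.26. Nr1i3, the nuclear receptor CAR of drug sensing, had signals of 507, 367 and 320.2 in livers, against 0.925, 1.82 and 2.57 in kidneys, 1.29, 1.48 and 3.08 in hearts and 0.75, 0.858 and 0.8 in brains. Nr5a2, a regulator of bile acid genes, had 4.42 over heart, Creb3l3, a fasting factor, 4.13 over kidney, Foxa3 3.87 over kidney and Foxa2 3.36 over kidney, the last pair being forkhead factors of liver development. Onecut2, a factor of liver and bile duct development, had 3.03 over brain, and Cebpa, a driver of hepatocyte genes, 2.35 over kidney. Hnf4a, the nuclear receptor at the centre of the hepatocyte program, did not meet the rule, since its log2 difference over kidney was -0.59. It read 1427, 1565 and 1375 in livers, against 2345, 2258 and 2015 in kidneys, 1.84, 3.13 and 1.27 in hearts and 1.65, 6.53 and 1.74 in brains. Gata4, a factor of heart and liver development, had -2.16 over heart, and 1.39 over kidney.

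Iron, copper and heme genes were higher in 9 of 15 cases and lower in 0, with 5 higher and 1 lower as deposited and 6 higher and 1 lower when scaled to ribosomal and proteasome genes. Tfr2, which senses iron-loaded transferrin, had 1974, 2154 and 2226 in livers, against 1, 0.925 and 7.78 in kidneys, 7.59, 1.13 and 3.22 in hearts and 17.6, 24.4 and 28.4 in brains. Slc40a1, the iron exporter that hepcidin blocks, had 1.80 over kidney, Hfe, a partner of Tfr2, 1.33 over heart, and Mt2, a metallothionein, 1.29 over kidney. Atp7b, the copper exporter of Wilson disease, had 2.18 over kidney, and Steap4, a metalloreductase, 1.98 over heart. Hjv, a hepcidin regulator, had 3.75 over kidney, -1.90 over heart and 3.85 over brain. Peroxisome and oxidant defence genes were higher in 7 of 22 cases and lower in 0, with 11 higher by the trimmed mean and 12 by the 75th percentile, and 1 lower as deposited or by ribosomal and proteasome genes. They were led by Uox, urate oxidase, at 7.37 over kidney, and Hao1, glycolate oxidase, at 6.45 over kidney, with Aldh1a1, a retinal dehydrogenase, at 3.68 over kidney and Prdx4, a peroxiredoxin of the endoplasmic reticulum, at 2.01 over kidney. Gpx3, the glutathione peroxidase that kidney secretes into plasma, had -7.18 over kidney, -3.80 over heart and 0.12 over brain.

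Genes known from other studies to be stronger in the livers of female mice were higher in 9 of 14 cases. Cyp2b9 had 3077, 2274 and 2452 in livers, against 10, 11.6 and 11.1 in kidneys, 3.97, 0.8 and 8.5 in hearts and 2.23, 1.13 and 3.73 in brains, and Cyp2b13 had 6.11 over heart. Sult3a1, a sulfotransferase, had 6.14 over kidney, Cyp17a1, a steroid hydroxylase, 5.04 over kidney, and Cyp3a44 4.87 over heart. Of 11 genes known to be stronger in male livers 5 were higher, among them Ugt2b1, a glucuronyltransferase, at 6.08 over heart, the complement genes C6 at 4.58 over kidney and C8b at 4.39 over kidney, and Cyp2d9, a steroid hydroxylase, at 2.59 over kidney. Cyp4a12a, a male fatty acid hydroxylase, read 0.467, 2.23 and 0.875 in these female livers, against 324, 265 and 436 in kidney. The major urinary proteins, pheromone carriers made by liver, were higher in all 3 tested genes, and Mup3 varied most among livers, at 1728, 831 and 5169. Its other-organ arrays read at most 3.83, and its probe set may read other family members.

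Periportal genes, which line the inflow end of the liver lobule, were higher in 11 of 14 cases, and pericentral genes of the outflow end in 9 of 15. Cyp2f2, a periportal cytochrome, had 6.93 over kidney, and Hsd17b13, of lipid droplets, 6.80 over heart. Cyp2e1, the pericentral enzyme of ethanol oxidation, had 2.16 over kidney, with 9428 ± 746 in liver, against 2109 ± 327 in kidney (SD, n = 3 each). Gulo, the last step of vitamin C synthesis, had 5.58 over kidney, and Rgn, a calcium-binding lactonase of the same synthesis, 6.14 over kidney.

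Some markers of the other liver cells were also among the higher genes. Of 8 tested Kupffer cell markers 3 passed: Clec4f, a lectin of mouse Kupffer cells, at 515, 453 and 655 in livers, against 18.4, 7.58 and 3.01 in kidneys, 3.83, 1.13 and 2.01 in hearts and 0.667, 0.858 and 8.65 in brains, Cd5l, a secreted macrophage protein, at 4.61 over heart, and Vsig4, a complement receptor, at 2.82 over heart. The macrophage genes Adgre1, C1qa, C1qb and Csf1r did not pass, with log2 differences over heart of 0.08, -0.28, -0.41 and 0.02. Of 9 sinusoidal endothelium markers 5 were higher, led by Clec4g at 4.12 over heart, and Stab2, which clears hyaluronan, had 1.77 over kidney. The others were Dnase1l3, a secreted nuclease, at 2.82 over heart, Oit3 at 2.81 over kidney and Gpr182, a scavenger of chemokines, at 1.46 over kidney, whose call ended in 3 of 23 settings. Of 7 stellate cell markers 2 were higher: Lrat, which stores vitamin A as esters, at 2.83 over kidney, and Colec11, a collectin, at 2.26 over heart. By limma's adjusted p under 0.05 with no minimum fold, 2 stellate markers, Des and Dcn, were lower than in heart and 4 higher. Of the sinusoidal markers 1, Lyve1, was lower than in heart and 7 higher. Over all probe sets 31% were lower than in heart and 25.5% higher. The stellate markers summed to 2581 to 3001 in livers, against 5067 to 5310 in hearts. All 5 tested bile duct markers were neither. Krt19, a bile duct keratin, read 3.08, 3.58 and 23.9 in liver, and Epcam, an epithelial adhesion molecule, read 7.59, 14.8 and 2.45 in liver, against 479, 637 and 489.6 in kidney.

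Some marker sums varied among arrays of 1 organ. The adipocyte markers summed to 7304 to 9481 in livers, against 1059 to 5385 in kidneys, 3493 to 3874 in hearts and 18.42 to 31.42 in brains, and the liver sum was mostly Car3, a carbonic anhydrase that liver also expresses, at 7885, 7142 and 9371. Car3 was higher in liver, with a smallest log2 difference of 2.95 over kidney, and its kidney arrays read 1411, 2230.5 and 345. Adipoq, the adipocyte hormone adiponectin, read 4.69, 19.6 and 1.02 in liver, against 411, 498 and 67.9 in kidney. The part of fat around the kidney in these values was not tested. Lymphocyte markers summed to 95.82 to 213.9 in liver, against 152.3 to 538.8 in kidney. The pair of pancreatic acinar markers summed to 344.6 to 653.3 in liver, against 1341 to 1549 in kidney.

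The 20 genes furthest below every other organ began with Ldhb, Htra1 and Slc25a4, and each is described below with what it is known to do. Their liver signals were at most 79.6, while every array of another organ read at least 163. The smallest of the 3 fold changes ran from 9.38 to 36.7, and the largest adjusted p of their 60 tests was 3.16e-09. For 11 of the 20 every tested probe set was called lower. These genes too were chosen on these values, which describe the group and test nothing about it. In 127 of the 453 lower genes the liver mean lay below the 40th percentile of signals, so their fold changes are limited by the offset.

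**Figure D3:**
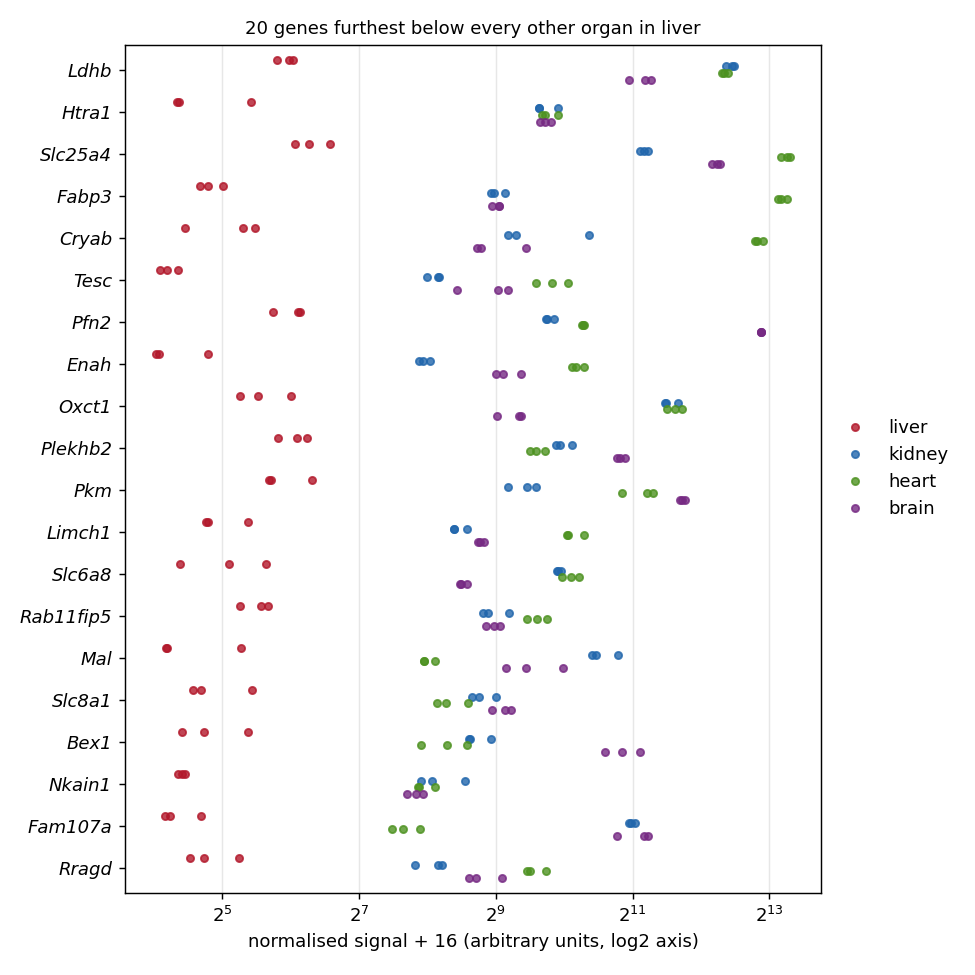
Normalised signal plus 16 on a log2 axis, in arbitrary units, for the 20 genes furthest below kidney, heart and brain in liver; each point is 1 array, 3 per organ. The liver arrays read at most 79.6 before the offset and lie to the left of every array of the other organs, which read at least 163.

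Ldhb, the lactate dehydrogenase subunit of tissues that burn lactate, had signals of 39.6, 50 and 47.3 in livers, against 5616, 5247 and 5683 in kidneys, 5053, 5169 and 5367 in hearts and 2465, 2314 and 1968 in brains. Its log2 differences were -6.49 ± 0.09 over kidney, -6.41 ± 0.09 over heart and -5.20 ± 0.09 over brain (SE, n = 3 per organ), and its adjusted p was 9.66e-17 against brain, the nearest organ. Oxct1, the enzyme that lets tissues burn ketone bodies, had 48.4, 30.1 and 22.2 in livers, against 2839, 2866 and 3223 in kidneys, 2883, 3125 and 3346 in hearts and 632, 647 and 502 in brains. Liver is known to make ketone bodies without using them, and here its arrays were the lowest of all 12 for this gene. Acss1, the mitochondrial acetate-activating enzyme, had 3.08, 3.33 and 1.69 in livers, against 1057, 903 and 1048 in kidneys, 1237, 1220.2 and 1355 in hearts and 59.7, 60.6 and 81.1 in brains, and it lost its call with an offset of 64.

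Slc25a4, the ADP/ATP carrier of heart and muscle mitochondria, had signals of 61.5, 51 and 79.6 in livers, against 2388, 2194 and 2281 in kidneys, 10026, 9785 and 9230.1 in hearts and 4924, 4576 and 4809.6 in brains. Heart stood highest, and the log2 differences were -4.86 over kidney, -6.94 over heart and -5.92 over brain. Fabp3, the fatty acid-binding protein of heart, had 16.3, 9.53 and 11.8 in livers, against 474, 546 and 487 in kidneys, 9230.1, 8923 and 9785 in hearts and 479, 511 and 515 in brains. Kidney and brain were close to each other for Fabp3, and 1 of its 2 tested probe sets was called lower in liver. Cryab, a small heat shock protein of heart and lens, had 6.08, 28.9 and 23.6 in livers, against 564, 1299 and 614 in kidneys, 7670.1, 7081 and 7182 in hearts and 681, 426 and 407 in brains.

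Slc6a8, the creatine transporter, had 4.91, 18.4 and 33.8 in livers, against 939.7, 949 and 979 in kidneys, 1087, 987 and 1177 in hearts and 343, 342 and 367 in brains. Its log2 differences were -4.88 over kidney, -5.06 over heart and -3.47 over brain. Ckb, the creatine kinase that uses the imported creatine in brain and kidney, had 83.8 ± 7.39 in livers, against 451 ± 50 in kidneys, 251 ± 31.9 in hearts and 4484 ± 154 in brains (SD, n = 3 each), and was lower in liver with a smallest log2 difference of -1.42 over heart. Slc8a1, the sodium-calcium exchanger, had -3.44 over heart, and Nkain1, a partner of the sodium pump, -3.41 over brain. Of 3 tested Slc8a1 probe sets 1 was called, and of 4 for Nkain1, 2 were.

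Pfn2, an actin-binding profilin, had signals of 37.5, 54.5 and 53.3 in livers, against 839, 846 and 905 in kidneys, 1206, 1232 and 1220.2 in hearts and 7484, 7484 and 7535 in brains. The smallest log2 differences of the others follow with their organ. Enah, which extends actin filaments, had -3.65 over kidney, Limch1, an activator of non-muscle myosin, -3.48 over kidney, and Fam107a, an actin-associated protein, -3.31 over heart. For Fam107a heart was the near organ, at 222, 163 and 184, while kidney read 1961, 1998 and 2086. Of the membrane traffic genes, Rab11fip5, an effector of recycling endosomes, had -3.46 over kidney, Mal, a proteolipid of kidney epithelium and myelin, -3.45 over heart, and Plekhb2, a lipid-binding protein of endosomes, -3.55 over heart. Htra1, a secreted serine protease, had -5.02 over kidney, -5.06 over heart and -5.01 over brain, nearly the same in all 3 comparisons. Tesc, a calcium-binding regulator of a proton exchanger, had -3.89 over kidney, Bex1, an X-linked gene of neurons, -3.42 over heart, and Rragd, a GTPase that passes nutrient state to the lysosome, -3.23 over kidney.

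Enzymes and carriers with a liver form and forms of other tissues were counted as 2 lists, and probe sets were compared between organs only, not with each other. Of 35 forms typical of other tissues 12 were lower in liver than in all 3 organs and 1 was higher, against the background of 3.38% and 6.19%, with medians of -2.02, -4.00 and -2.14. Of 17 liver forms 8 were higher and 0 lower (1 lower as deposited), with medians of 0.80, 2.99 and 4.22.

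**Figure D4:**
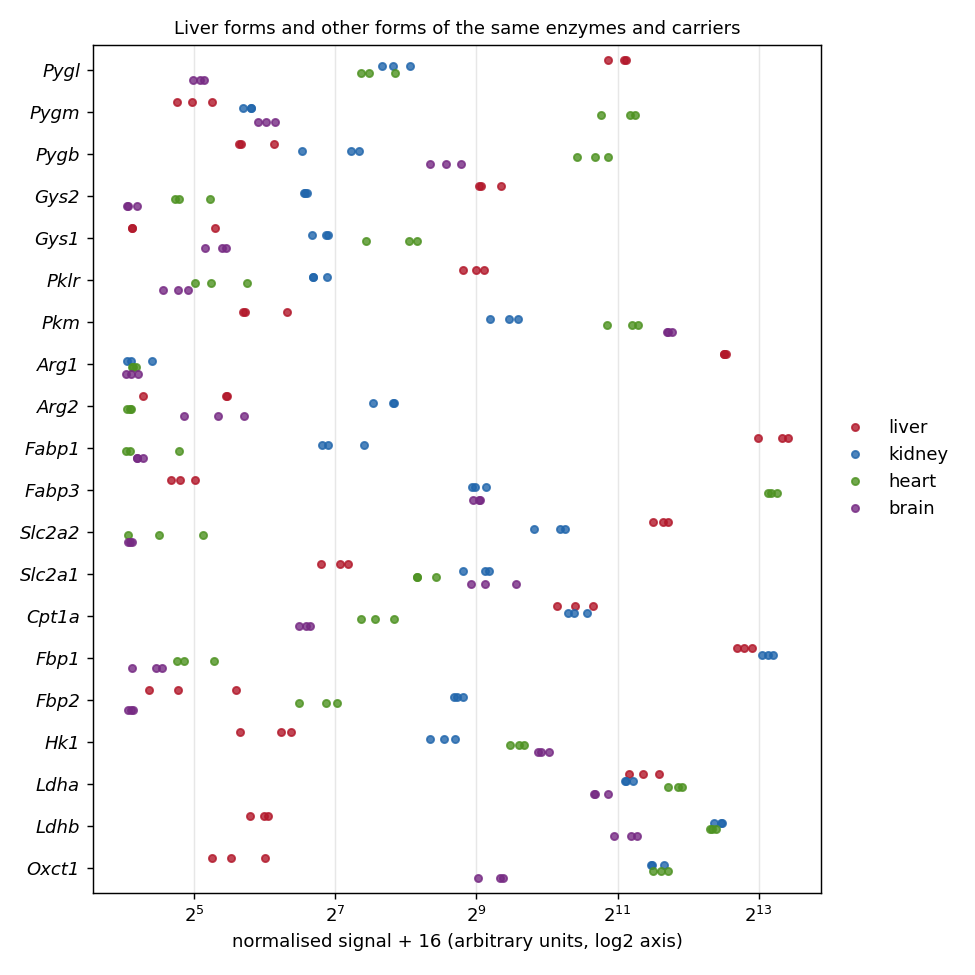
Normalised signal plus 16 on a log2 axis for 20 genes of enzymes and carriers that exist in several forms; each point is 1 array, 3 per organ. Pklr, Pygl, Gys2, Arg1, Fabp1 and Slc2a2 are highest in liver, Pkm, Pygb, Hk1, Ldhb, Fabp3, Slc2a1 and Oxct1 are lowest there, and Fbp1 and Cpt1a differ between liver and kidney by -0.33 and -0.02 on the log2 scale.

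The forms of pyruvate kinase, the last step of glycolysis, differed between organs in opposite directions. Pklr, the liver form, had signals of 533, 434 and 493 in livers, against 87.1, 86.7 and 102 in kidneys, 16.3, 21.9 and 38 in hearts and 11.3, 14.2 and 7.63 in brains, and Pkm, the form of muscle and brain, had 35.6, 36.6 and 63.3 in livers, against 686, 757 and 566 in kidneys, 2347, 1832 and 2498 in hearts and 3474, 3298 and 3350.5 in brains. The smallest log2 difference was 2.22 over kidney for Pklr and -3.51 over kidney for Pkm. Glycogen phosphorylase, which releases glucose units from glycogen, followed with 3 genes. Pygl, the liver form, had 1844, 2211 and 2156 in livers, against 209.9, 251 and 187 in kidneys, 163, 214 and 149 in hearts and 19.1, 15.7 and 17.8 in brains, and Pygb, the brain form, had 34.9, 54.2 and 33.6 in livers, against 134, 145 and 76.2 in kidneys, 1619, 1353 and 1855 in hearts and 363, 307 and 424 in brains. Pygb was highest in heart, and Pygm, the muscle form, had 16.2 ± 5.51 in livers, against 38.6 ± 2.43 in kidneys, 2144 ± 364 in hearts and 49.1 ± 5.44 in brains (SD, n = 3 each), so it separated heart from all other organs and did not pass as lower in liver since its log2 difference over kidney was -0.77. For glycogen synthase, Gys2 of liver had 2.57 over kidney, while Gys1 of muscle had -2.30 over kidney, -3.36 over heart and -0.82 over brain.

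Hk1, the hexokinase of most tissues, was lower in liver, at 34.1, 59.2 and 67 in livers, against 356, 398 and 309.9 in kidneys, 761, 699 and 802 in hearts and 949, 920.3 and 1030.3 in brains. Hk2, the hexokinase of muscle, had 0.19 over kidney, -5.13 over heart and 0.26 over brain. Aldoa, the aldolase of muscle, had -3.06 over kidney and Pfkp, the platelet form of phosphofructokinase, -2.62 over kidney, both lower in liver, while Aldoc, the aldolase of brain, had -0.07 over kidney, 3.31 over heart and -4.67 over brain. Pfkl, the form named for liver, was not higher there: its signals were 223 ± 27.8 in livers, against 285 ± 22 in kidneys, 414 ± 96.4 in hearts and 588 ± 37.4 in brains (SD, n = 3 each). Ldha, the lactate dehydrogenase subunit of muscle and liver, had 2648 ± 390.4 in livers, against 2257 ± 96.4 in kidneys, 3624 ± 244 in hearts and 1690.3 ± 129 in brains (SD, n = 3 each), with log2 differences within 0.64 of 0.

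Among glucose carriers Slc2a2, the low-affinity form of liver, kidney and pancreas, had 2876, 3196 and 3331 in livers, against 1144, 884 and 1211 in kidneys, 6.65, 0.658 and 19 in hearts and 1, 0.683 and 1.4 in brains. It was higher by 1.53 ± 0.20 over kidney, 7.06 ± 0.20 over heart and 7.53 ± 0.20 over brain, and lost its call with an offset of 1. Slc2a1, the carrier of red cells and brain vessels, was lower with 114 ± 16.9 in livers, against 513 ± 69 in kidneys, 289 ± 33.7 in hearts and 581 ± 138 in brains (SD, n = 3 each). Slc2a3, the neuronal carrier, had -0.52 over kidney, -0.89 over heart and -6.11 over brain. Slc2a4, the insulin-driven carrier of muscle and fat, had -1.56 over kidney, -5.09 over heart and 1.05 over brain. Arg2, the mitochondrial arginase, had 19.8 ± 14.2 in livers, against 197 ± 23.4 in kidneys, 0.947 ± 0.308 in hearts and 24.5 ± 11.8 in brains (SD, n = 3 each), highest in kidney. Both alanine aminotransferases were higher in liver, Gpt at 2.99 over heart and Gpt2, which had been listed with the forms of other tissues, at 2.54 over kidney. Fbp2, the muscle bisphosphatase, had -3.83 over kidney, -1.89 over heart and 0.81 over brain.

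Pgam2, the phosphoglycerate mutase of muscle, was lower in liver at 2.02, 2.23 and 3.62 in livers, against 394, 256 and 316 in kidneys, 2962, 2702 and 2816 in hearts and 26, 33.9 and 26.6 in brains. Its smallest log2 difference was -1.26 over brain, and the call ended with an offset of 64. Other listed forms were far below a single organ, or below 2 of the 3. Over heart these were Ckm and Ckmt2, the creatine kinases of muscle cytosol and mitochondria, at -7.55 and -8.29, and Eno3, the enolase of muscle, at -6.30. Over brain they were Eno2, the neuronal enolase, at -6.87, and Cpt1c, a brain relative of Cpt1a, at -4.12. Pfkm, the phosphofructokinase of muscle, had -0.55 over kidney, -4.35 over heart and -3.20 over brain. Ckmt1, a mitochondrial creatine kinase, had -3.44 over kidney and -3.99 over brain, and Bcat1, a branched-chain aminotransferase, had -2.97 and -3.50 over the same organs. Bcat2, which liver is known to lack in large part, had -0.72 over kidney, -1.05 over heart and 1.12 over brain. Dbt, of the next step of branched-chain breakdown, had 0.27 over kidney, 0.78 over heart and 3.13 over brain, and the brain fatty acid-binding protein Fabp7 had 0.09 over kidney, 2.44 over heart and -1.30 over brain. Pgam1, the mutase of other tissues, had -0.96 over kidney, 0.41 over heart and -1.79 over brain, and Acss2, the cytosolic acetate-activating enzyme, had 0.80 over kidney, 2.49 over heart and 2.97 over brain.

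Subunits of cytochrome c oxidase, the last complex of respiration, also come in a muscle form and a form of liver and other tissues. The muscle forms Cox6a2, Cox7a1 and Cox8b had log2 differences over heart of -8.01, -6.66 and -8.26, and over brain of -0.89, 1.04 and -0.50, so none of the 3 met the rule. The other forms Cox6a1, Cox7a2 and Cox8a had 1.40, -0.75 and 0.29 over heart.

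Housekeeping groups held none of the higher or lower genes: 0 of 30 oxidative phosphorylation genes, 0 of 15 cytosolic ribosomal protein genes and 0 of 25 proteasome genes were higher or lower by the rule in all 3 comparisons with limma, and with signals as deposited 1 oxidative phosphorylation gene was lower. Over all genes 6.19% were higher and 3.38% lower, so a count of 0 in lists this small says little about them. In single comparisons at adjusted p under 0.05, with no minimum fold, 29 of the 30 oxidative phosphorylation genes were lower than in heart, where 31% of all probe sets were, and 28 were lower than in kidney, where 25.3% were. Their median log2 difference over heart was -1.24, and it stayed between -1.44 and -1.05 under other scalings. Over kidney it was -0.65, with a sign that turned under other scalings (-1.01 to 0.09), and over brain 0.20 (-0.21 to 1.6). Cox4i1, a core oxidase subunit, had -0.97 over kidney, -1.14 over heart and -0.54 over brain. Ndufs1, a subunit of complex I, had -1.01 over kidney, -2.32 over heart and -0.04 over brain. At the same threshold 11 of 15 ribosomal protein genes were lower than in kidney and 0 higher, where 25.3% and 20.3% of all probe sets were. Of 25 proteasome genes 15 were lower than in heart and 2 higher, where 31% and 25.5% were. Against kidney 12 proteasome genes were higher and 0 lower. The medians of both lists changed sign with the scaling against each of the 3 organs.

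Coenzyme Q synthesis genes, which concern the molecule fed in this study, were neither higher nor lower in all 12 cases, and with signals as deposited 1 was lower. With 6.19% of all genes higher and 3.38% lower, a count of 0 among 12 says little. At adjusted p under 0.05 with no minimum fold, 10 of 12 were lower in liver than in heart and 2 higher, where 31% and 25.5% of all probe sets were. Against brain 10 were higher, where 35.6% of all probe sets were. The median log2 difference was -1.05 over heart, and between -1.25 and -0.88 under other scalings. Over brain it was 1.02 (-0.36 to 1.25) and over kidney 0.20 (-0.58 to 0.36), and both signs turned under another scaling. Coq8a, an atypical kinase needed for the pathway, had 1036, 1027 and 847 in livers, against 388, 501 and 449 in kidneys, 2393, 2081 and 2535 in hearts and 123, 123 and 128 in brains, and Coq9, a lipid-binding member of the complex, had -0.38 over kidney, -2.21 over heart and 1.05 over brain. Over heart, Coq10a, which helps coenzyme Q function in respiration, had -3.18, Coq7, a hydroxylase, -1.88, Coq3, a methyltransferase, -0.39, and Coq8b, a relative of Coq8a, 1.22. The heart arrays were the highest for Coq8a, Coq9, Coq10a and Coq7. The other members had values over heart of -1.63 for Coq6 and -1.17 for Coq5, a hydroxylase and a methyltransferase, -0.93 for Coq2 and -0.79 for Pdss2, which join and build the side chain, -0.52 for Coq10b and 0.35 for Coq4.

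Of 29 genes of the secretion machinery of the endoplasmic reticulum 4 were higher and 0 lower, with medians of 0.39, 1.08 and 0.93. The 4 were Pdia4, a disulfide isomerase, at 1.55 over kidney, Hsp90b1, a chaperone, at 1.14 over heart, Lman1, a cargo receptor for clotting factors, at 1.06 over kidney, and Sec63, of the translocon, at 1.06 over kidney. The sign of the median over kidney turned under another scaling (-0.07 to 1.02), and all 4 calls ended with the signals as deposited. The count of higher genes was 0 as deposited, 2 with ribosomal and proteasome genes, 6 with the trimmed mean and 11 with the 75th percentile.

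Among cytoskeletal and small GTPase genes 0 of 30 were higher and 4 were lower, with medians of -0.57, -1.22 and -2.10. The count of lower genes was 12 with signals as deposited and 9 when scaled to ribosomal and proteasome genes, and the median over brain was -0.72 with the 75th percentile. The 4 were Mapt, the microtubule protein tau, at -2.78 over heart, Stmn1, which takes microtubules apart, at -1.72 over heart, Tuba1a, an alpha-tubulin of neurons, at -1.51 over kidney, and Dynll1, a light chain of dynein, at -1.18 over heart. Of 24 collagen and matrix genes 2 were higher and 0 lower, while 7 were lower with signals as deposited and 6 when scaled to ribosomal and proteasome genes. Their median over brain was 0.37, and its sign turned under another scaling (-0.92). Fn1, whose plasma form comes from hepatocytes, had 3546, 4149.8 and 3929.9 in livers, against 175, 228 and 153 in kidneys, 190.2, 146 and 163 in hearts and 139, 106 and 144 in brains, and Col18a1, the source of endostatin, 2.64 over kidney. Against heart alone, at adjusted p under 0.05 with no minimum fold, 22 of the 24 were lower in liver, where 31% of all probe sets were, with a median of -2.20, and the fibrillar collagen Col1a1 had -0.65 over kidney, -3.16 over heart and -0.49 over brain. Genes of fetal liver were higher in 0 of 5 cases and lower in 2 (3 as deposited, 1 with the 75th percentile): Igf2, the fetal growth factor, at -2.19 over brain, and Cd24a, a surface protein of immature cells, at -1.04 over brain.

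The members were then looked up in the 60 arrays that had no part in choosing them, 12 arrays for each other diet and duration, normalised within each set. Of the 1350 higher probe sets 86.9% passed the same rule in the Q10 6 months set, 86.8% in QH2 6 months, 85.6% in control 14 months, 72.6% in Q10 14 months and 83.6% in QH2 14 months. These shares count untested members as not passing: 1304 of the 1350 were tested in Q10 14 months, the fewest, and 1332 in Q10 6 months, the most. The background there was 5.14%, 4.98%, 6.69%, 4.73% and 5.69% of all tested probe sets. Of the 715 lower probe sets 77.5%, 70.2%, 78.5%, 58.7% and 79.7% passed in the same order of sets, against a background of 2.73%, 2.48%, 3.76%, 2.46% and 3.64%. In none of the 5 sets was a member called in the opposite direction by the same rule.

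**Figure D5:**
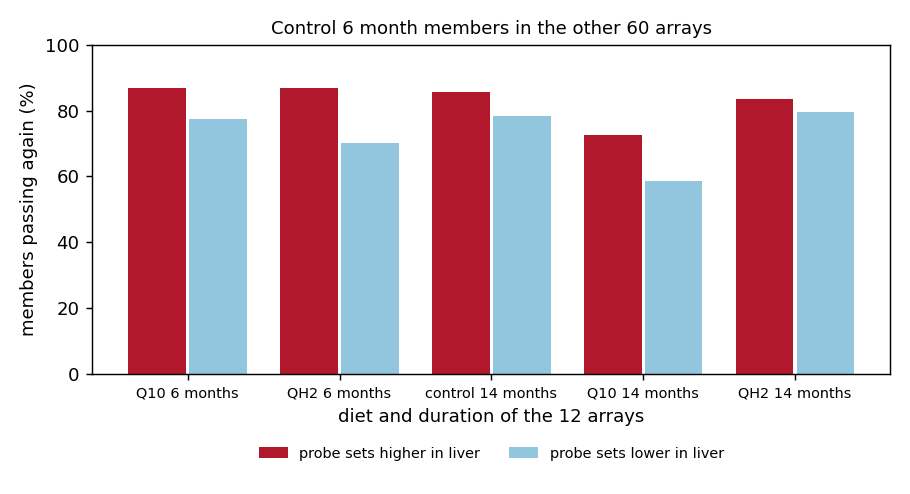
Share of the 1350 higher and 715 lower probe sets of the control 6 months comparison that passed the same rule in each of the 5 other sets of 12 arrays, in percent. Q10 14 months has the lowest share in both directions, 72.6% and 58.7%.

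The Kupffer cell marker list also holds general macrophage genes, and in control 6 months it summed to 1649 to 2056 in hearts and 1518 to 1802 in brains. The Q10 14 months livers had the highest sum of this list of the 6 sets, 8691 to 24330, against 1608 to 4528 in the livers of the other sets. Their lymphocyte marker sum was 860.3 to 9890, against 310.1 to 728.5 in control and 386.5 to 523.9 in QH2 livers at 14 months, and 95.82 to 213.9 in control livers at 6 months. Their actin 3' to 5' ratio was 1.59 to 3.05, against 3.49 to 4.11 in control and 3.67 to 7.36 in QH2 livers at 14 months, and 2.86 to 3 in control livers at 6 months. The part of these values in the lower shares was not tested. All 20 higher and 19 of the 20 lower named genes kept their call in all 5 sets, and Rragd kept it in 4. Rragd ranged from 5.96 to 658 in the Q10 14 months livers and did not pass there, with a smallest log2 difference of -2.13. Pkm averaged 602 in Q10 14 months livers, with a range of 156 to 1162, against 45.2 in control 6 months livers, and was still lower, with a smallest log2 difference of -1.6. Hamp ranged from 302 to 8847 in Q10 14 months livers, against 6942 to 8291 in control 6 months livers. Ldhb stayed between 30.2 and 82.1 in the liver arrays of all 6 sets, while brain arrays read at least 1968.

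Whether liver moved away from the other organs with longer feeding was tested on the 24 control diet arrays, as the difference between 14 and 6 months of liver minus the mean of the other 3 organs. By limma's adjusted p 3628 of 27022 probe sets passed (13.4%), 2079 with a positive (7.69%) and 1549 with a negative difference (5.73%). Of 1341 tested higher members 171 passed (12.8%), 57 of them positive, and of 715 lower members 97 passed. Of the 40 named genes 2 passed: Oxct1, whose difference was 0.59 on the log2 scale, and Rab11fip5, whose difference was -0.49. Duration is tied to age and to the time the mice were killed, which cannot be told apart. The control livers of the 2 durations also differed without overlap in the actin 3' to 5' ratio, 3.49 to 4.11 at 14 months against 2.86 to 3 at 6 months, and in the lymphocyte marker sum, 310.1 to 728.5 at 14 months against 95.82 to 213.9 at 6 months. The part of these in the duration result was not tested.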

How the data were processed

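The deposited values are linear signal intensities of 45037 probe sets and 64 controls per array, computed with GCOS, per the submitters' processing notes. The version is not given in the sources used here, nor are the scaling settings, and the arrays did not share a common scale. Gene symbols came from the platform's annotation, updated through RefSeq where it allowed, and promoter windows from RefSeq on GRCm38.p6. In R 4.3.3 the 12 arrays were quantile normalised, an offset of 16 was added, log2 was taken, and probe sets whose mean lay above the 40th percentile were kept. Each organ had a mean in limma 3.58.1, with moderated variances that follow the mean level, and liver was set against each of the 3 organs with Benjamini-Hochberg adjustment over 27022 probe sets. The scripts were tested on simulated data. The 3 arrays per group limit the precision: the median 95% half-width of a log2 difference was 0.399. Adjusted p-values and log2 differences of single genes are from that fit.

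Named were the 20 genes furthest above and below, up to 6 called and up to 4 other members of each list, the isozyme lists and the coenzyme Q genes. Alb, Hp, Fga, Apoc2, Cyp2e1 and Cebpa were named after their values were seen. The groups, lists and members were chosen with earlier results of these data known. Other scalings, offsets of 1 and 64, other filters, fold minimums, a replicate block and leaving out each array were tried. The numbers were not used as pairs, since no label says that they name a mouse. Same-numbered arrays of different organs deviated together by r between -0.0205 and 0.0628 over 18 pairs. With 3 arrays per organ these values cannot show whether the arrays came from the same mouse.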

Additional observations from a re-analysis of the deposited data

Results flagged for a closer look

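Among the 245 genes with values in the text, 22 differed between 14 and 6 months on the control diet in the level of liver minus the mean of kidney, heart and brain, by limma's adjusted p over all 27022 probe sets, 7 with a positive and 15 with a negative difference. Over all probe sets 13.4% passed, 7.69% positive and 5.73% negative. The differences below are on the log2 scale, 14 minus 6 months, and a change in any of the 4 organs can move them.

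Of the cholesterol synthesis genes named above, Idi1 (0.879), Fdps (0.68), Dhcr7 (0.644) and Hmgcs1 (0.48) were higher at 14 months relative to the other organs. Tm7sf2 (0.432) and Sc5d (-0.301) did not pass, with limma's adjusted p of 0.0655 and 0.216. Among enzymes with several forms, Oxct1 had 0.587, Bcat1 had -0.879, Ckb had -0.712, and the oxidase subunits had 0.76 for Cox6a2, -0.705 for Cox7a1, -0.21 for Cox7a2 and -0.192 for Cox4i1. Markers of the other liver cells had -1.08 for Dnase1l3, -0.857 for Oit3 and -0.995 for Cd5l. Metal and retinal genes had -1.64 for Mt2, -0.552 for Slc40a1 and -0.764 for Aldh1a1. Mup3 had -1.36, Cyp4a12a 0.989, Igf2 -0.72, Mapt -0.529 and Rab11fip5 -0.486.

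For Mt2 the mean log2 level was 10.09 at 14 months, against 11.42 at 6 months, in liver, and 10.98 at 14 months, against 10.01 at 6 months, in brain. For Oxct1 the mean was 6.25 at 14 months, against 5.74 at 6 months, in liver. Some differences came largely from other organs. Aldh1a1 had 12.62 at 14 months, against 12.7 at 6 months, in liver, and 8.53 against 7.02 in brain. Mapt had 5.13 against 5.20 in liver, 8.96 against 8.32 in kidney and 8.69 against 8.12 in heart. Fdps had 11.04 against 10.74 in liver, and 5.93 against 7.07 in kidney. The actin 3' to 5' ratio and the lymphocyte marker sum of the control livers also differed between the durations without overlap, and their part was not tested.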

How the results depend on the processing

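The share of calls that were higher in liver depended on the scaling between arrays. It was 44.5% against kidney, 45.1% against heart and 50.5% against brain after quantile normalisation, 10.3%, 34.4% and 12.8% with signals as deposited, 35.9%, 38% and 37% with a trimmed mean, 58.5%, 50.7% and 55.8% with the 75th percentile, and 15.2%, 36.8% and 19.7% when scaled to ribosomal and proteasome genes. The numbers of probe sets higher (1350) and lower (715) than in each other organ became 790 and 2010 as deposited. Lower probe sets numbered 1574 when scaled to ribosomal and proteasome genes, 1555 with an offset of 1 and 194 with an offset of 64. Of the 1350, 58.3% kept their call as deposited, 86.6% with the trimmed mean, 98.8% with the 75th percentile and 66.1% with ribosomal and proteasome genes. Of the 715, these shares were 92.7%, 94.4%, 80.7% and 94%. A 4-fold minimum left 624 higher and 110 lower, and no minimum gave 2955 and 2556. The 3628 probe sets whose liver difference changed with duration became 1195 as deposited and 1987 with a filter at the 60th percentile. Leaving out 1 array gave 10739 to 12480 calls against kidney, 14391 to 15119 against heart, 17679 to 19251 against brain, 1346 to 1372 higher, 688 to 813 lower, 1701 to 1723 members passing at 14 months (1717 with all arrays) and 2835 to 4002 for duration. With the replicate block these counts were 12258, 15278, 19062, 1350, 715, 1717 and 3604, each within 1.5 times of the count without it. No called gene listed by name changed the sign of its smallest difference under these settings, while medians of some gene lists changed sign, and the lower probe sets outnumbered the higher ones as deposited and with ribosomal and proteasome genes.

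Of 160 called genes with values in the text, 145 kept their call wherever they were tested among the 23 alternatives that had the 2-fold minimum. Among them were the 40 genes furthest above and below, each tested in all 23. Not every listed gene was tested in each setting: of 670, 645 were with the filter at the 60th percentile and 664 as deposited. The 15 that did not were Pck2 in 5 settings, Cd24a, Lman1 and Sec63 in 4, Gpr182 in 3, and Acot12, Acss1, Dynll1, Hsp90b1, Mt2, Pdia4, Pgam2, Pygb, Slc2a1 and Slc2a2 in 1. The cause was not tested. Signals near background carry little information on fold changes, and no detection calls were used.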
